A study of Rattus norvegicus with 8 samples.

Results

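The genes described here are 7 genes of lipid metabolism and the peroxisome in the adult rat medial prefrontal cortex: Pex2, Gpam, Etnk1, Pla2g12a, Mcat, Cert1 and Abca4. They were chosen by name from the authors' lists of probes called higher or lower after juvenile fluoxetine, so each has a probe among the 582 listed probes of an array with 15207 probes, and each has 1 such probe. The JFLX group received the antidepressant fluoxetine, which blocks serotonin reuptake, in juvenile life, between postnatal days 28 and 48, with a dose of 10 mg/kg. Controls were given a 5% sucrose solution as vehicle over the same days. In both groups total RNA was taken from the whole medial prefrontal cortex at 6 months of age, without any genetic change named in the labels, and 4 samples per group were hybridised with Cy3 to custom Agilent arrays. The sources used here name neither the strain or sex of the animals nor whether each sample is 1 animal, so the spread between samples may be partly technical.

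Control replicates 2 to 4 are labelled as controls in title and source name, but their description field mentions fluoxetine. The grouping follows the titles, and each difference is also given against control replicate 1 alone. The control arrays and the JFLX arrays lay in different position blocks of 1 slide, and position and treatment cannot be told apart. Gene names were available for the listed probes only, so the levels of most markers of neurons, glia and blood were not analysed here. Of 41 markers of 7 cell types or tissues, 3 were listed. These were the astrocyte enzyme Glul, with a difference of -0.51 ± 0.11 (JFLX minus control, log2, limma SE), the endothelial marker Pecam1, at 0.68 ± 0.25, and the platelet gene Ppbp, which was detected on 0 JFLX arrays and on 4 control arrays. Their part in the differences described here was not tested. In tissue RNA, fewer cells of a type and less RNA per cell cannot be told apart.

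Brain membranes are rich in phospholipids, sphingolipids and cholesterol, most of which the brain makes for itself. Peroxisomes shorten very long fatty acids and start the synthesis of ether phospholipids, which are abundant in myelin, and their enzymes are imported after synthesis in the cytosol by a machinery of peroxins. Glycerolipids and ethanolamine phospholipids are built at the endoplasmic reticulum and mitochondria, phospholipases release fatty acids from them again, and ceramide must be carried to the Golgi apparatus to become sphingomyelin. The 7 genes stand for separate steps of this network. None of them encodes an enzyme of sterol synthesis, and they are called lipid and peroxisome genes below. The gene ontology terms of the deposited table, for process, component and function together, hold a lipid or peroxisome word for 5 of the 7. Cert1 is listed there under its older name Col4a3bp as a protein kinase that binds the Goodpasture antigen, and Abca4 carries no term.

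Each gene was read out by a single probe of 60 bases. The 7 probe sequences are shown because every value below rests on them. Capitals mark the triplets TAA, TAG and TGA in any of the 3 forward frames:
Pex2: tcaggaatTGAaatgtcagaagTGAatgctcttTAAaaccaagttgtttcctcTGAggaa
Gpam: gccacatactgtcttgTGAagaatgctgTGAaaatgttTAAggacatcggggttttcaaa
Etnk1: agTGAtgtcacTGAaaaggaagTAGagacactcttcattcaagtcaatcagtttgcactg
Pla2g12a: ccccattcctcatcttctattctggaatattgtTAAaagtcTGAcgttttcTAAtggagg
Mcat: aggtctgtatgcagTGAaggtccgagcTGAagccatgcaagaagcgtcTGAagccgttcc
Cert1: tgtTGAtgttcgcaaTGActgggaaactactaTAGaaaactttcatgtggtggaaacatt
Abca4: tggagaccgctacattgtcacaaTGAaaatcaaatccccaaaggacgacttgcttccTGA
The Pex2 probe has such a triplet in every frame, while the other 6 leave 1 frame free of them, as do 94.7% of all listed probes in at least 1 frame. The deposited table places the probes of Pex2 (chr2:98323318-98323378), Pla2g12a (chr2:227334669-227334728) and Abca4 (chr2:218809062-218809121) on chromosome 2 and that of Etnk1 on chromosome 4 (chr4:181339125-181339184), each as a stretch of 60 or 61 bases. The probes of Cert1 (chr2:27026784-27028207), Mcat (chr7:121401474-121405090) and Gpam (chr1:261581417-261586800) cover 1424, 3617 and 5384 bases, far more than their 60 bases, as for 31.8% of the listed probes with a position, so their matches are split along the genome. Neither the genome build of these positions nor the exon or untranslated region under each probe is given in the deposited table. Chromosome 2 holds 4 of the 7 probes, against 5.36% of the listed probes. It is named because it holds the most of these 7 probes, so its count is high by that choice. The GC content was 36.7% in the probes of Pex2 and Cert1, 38.3% in Pla2g12a, 40.0% in Gpam and Etnk1, 45.0% in Abca4 and 55.0% in Mcat, beside a median of 45.0% over the listed probes. None of the 7 sequences occurs at another listed probe.

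The values that chose these genes are the same that describe them, so their differences are a description, and the counts of calls below, which rest on the same values, are not evidence of a difference. To be listed as higher a probe needed a JFLX mean of 0.4 or more on the authors' log2 scale, and to be listed as lower -0.4 or less, each with a p of at most 0.05 and the detected flag on at least 3 arrays, counted in JFLX for higher and in control for lower probes. A deposited log2 value is relative to the median of the control arrays of its own probe, so it holds no level and is comparable only between arrays. The member nearest to the fold threshold in the authors' deposited table was Cert1, with a mean of 0.47. The lowest mean in the list of higher probes was 0.4024, and the nearest probe below the threshold with p within the limit, which has no name here, stood at 0.3995. These limits do not set the lists alone. With p from the equal-variance test per probe, 1410 probes passed both limits on the higher side, of which 1088 were not listed, and 289 on the lower side, of which 29 were not listed. The detected flags of unlisted probes were not analysed here, so what kept those probes out was not tested.

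Lower values in JFLX were found for the peroxin Pex2 and the phospholipase Pla2g12a, with narrow groups that lay apart. Higher values were found for Gpam, Etnk1, Mcat, Cert1 and Abca4, with more spread, and in Etnk1 and Abca4 the groups overlapped. Over all 15207 probes the groups did not overlap at 13.0%, and among the listed probes at 71.6%, beside 5 of these 7. The authors listed 2.12% of all probes as higher and 1.71% as lower, beside 5 and 2 of these genes. In limma, fitted over all probes with Benjamini-Hochberg adjustment at a threshold of 0.05, 6.25% of all probes were called, 5.89% higher and 0.355% lower, and 26.5% of the listed probes. The members called were Pex2 and Pla2g12a, both lower. Both calls were lost in limma with trend and robust variance, where 4.99% of all probes were called, 759 higher and 0 lower. The call of Pla2g12a was also lost with the replicate number as a block, where 5.02% were called, 743 higher and 21 lower. Nothing is read from these counts because the members were selected on the same contrast. The calls over all probes split into 896 higher and 54 lower, and into 682 and 221 after centring each array on the 75th percentile, a step that shifted the median of all differences by -0.19.

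**Figure D1:**
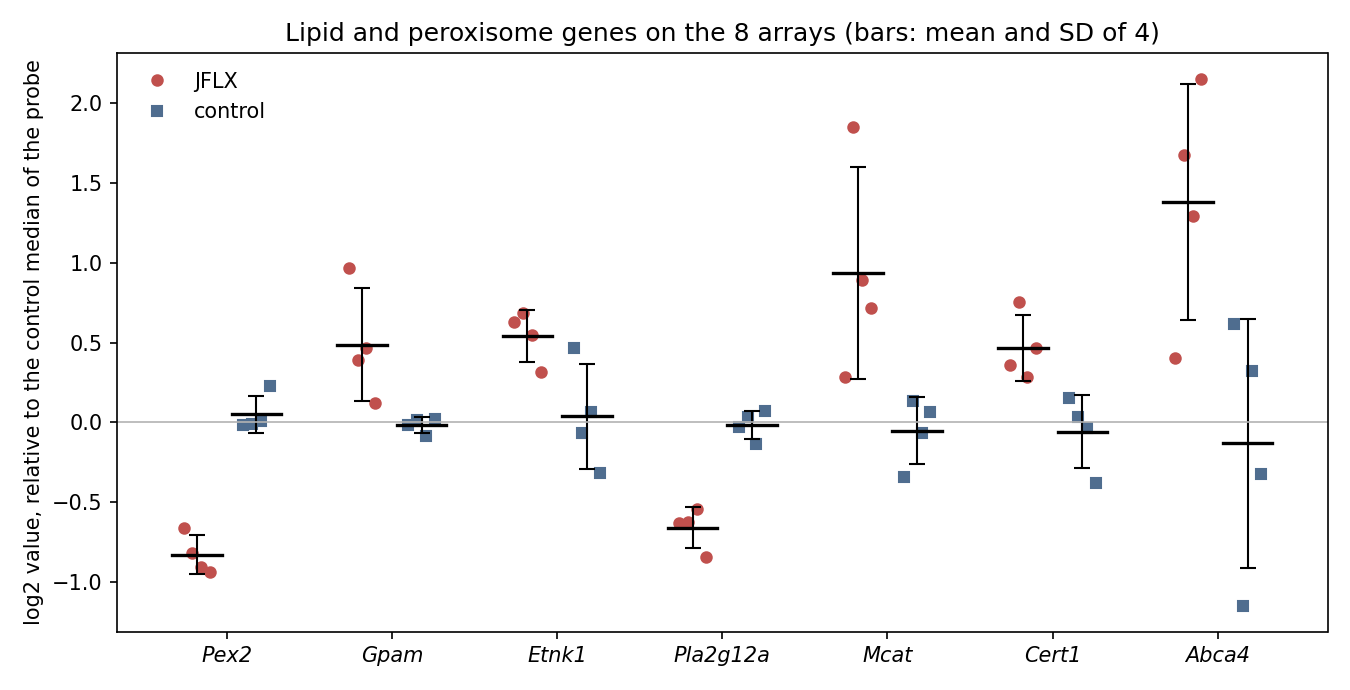
Deposited log2 values of the 7 genes on each array, relative to the control median of the probe, with JFLX as red circles to the left of control as blue squares. Bars give the mean and SD of 4 arrays. Pex2 and Pla2g12a lie below control on all 4 JFLX arrays with narrow groups, whereas Mcat and Abca4 have JFLX values spread over more than 1 log2 unit.

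Pex2 encodes a membrane peroxin with a RING finger that forms part of the ubiquitin ligase that recycles the import receptor of the peroxisome. Its log2 values were -0.66, -0.82, -0.90 and -0.93 on JFLX replicates 1 to 4, against -0.02, -0.01, 0.01 and 0.23 on control replicates 1 to 4. The groups were separated by a gap of 0.65, and control replicate 4 stood above the other 3 controls, which lay close to 0. The JFLX mean was -0.83 ± 0.12 and the control mean 0.05 ± 0.12 (SD, n = 4 each), a difference of -0.88 ± 0.11 (limma SE), or 0.542 times the control level. The background-subtracted intensity of the probe, before any scaling between arrays, was 63.1, 117, 121 and 135 on the JFLX arrays, sorted by size, against 187, 210, 239 and 246 on the control arrays. The intensities thus did not overlap either, and the dimmest control array was brighter than the brightest JFLX array. The probe was flagged as detected on all 8 arrays.

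Among the genes that build glycerophospholipids, Gpam encodes the mitochondrial acyltransferase that adds a fatty acid to glycerol 3-phosphate, the entry step of glycerolipid synthesis. For Gpam the log2 values were 0.97, 0.39, 0.47 and 0.12 on JFLX replicates 1 to 4, against -0.02, 0.02, -0.08 and 0.02 on control replicates 1 to 4. All JFLX arrays lay above all controls, but JFLX replicate 4 by only 0.10, and JFLX replicate 1 was the highest by far. The mean in JFLX was 0.49 ± 0.35 and the control mean -0.02 ± 0.05 (SD, n = 4 each), with an SD 7.25 times as large in JFLX. The difference was 0.50 ± 0.17 (SE), a 1.42-fold higher mean. Unscaled intensities were 34.9, 72.0, 83.3 and 111 on the JFLX arrays, against 46.6, 56.0, 56.8 and 64.5 on the control arrays. Before scaling, therefore, 1 JFLX array was dimmer than every control.

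Etnk1 encodes ethanolamine kinase, which starts the route from free ethanolamine to phosphatidylethanolamine. Its log2 values were 0.63, 0.68, 0.54 and 0.31 on JFLX replicates 1 to 4, against 0.47, -0.06, 0.06 and -0.32 on control replicates 1 to 4. Here the control group was the wider one, and control replicate 1 lay above JFLX replicate 4. The JFLX mean was 0.54 ± 0.16 and the control mean 0.04 ± 0.33 (SD, n = 4 each), a difference of 0.51 ± 0.18 (SE) or 1.42-fold. Against control replicate 1 alone the difference was 0.08. Unscaled intensities were 16.3 on 1 JFLX array and 35.9 to 36.1 on the other 3, against 18.4, 21.1, 25.0 and 32.0 on the control arrays.

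Pla2g12a encodes a secreted phospholipase A2 of group XII, a family that releases a fatty acid from membrane phospholipids. For Pla2g12a the log2 values were -0.63, -0.62, -0.54 and -0.84 on JFLX replicates 1 to 4, against -0.03, 0.03, -0.13 and 0.07 on control replicates 1 to 4. The groups were apart by 0.41, more than the 0.30 by which the JFLX arrays differed among themselves. The JFLX mean was -0.66 ± 0.13 and the control mean -0.02 ± 0.09 (SD, n = 4 each), a difference of -0.64 ± 0.10 (SE), or 0.640 times the control level. Unscaled intensities were 400, 799, 822 and 926 on the JFLX arrays, against 1008, 1241, 1314 and 1461 on the control arrays. As for Pex2, no JFLX array reached the dimmest control. Among the 7 genes the intensities did not overlap in these 2, beside 51.2% of the probes listed as lower, and they overlapped in all 5 higher genes, beside 5.59% of the probes listed as higher that did not overlap.

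Mcat encodes the mitochondrial transacylase that loads malonyl groups onto the acyl carrier protein for fatty acid synthesis inside mitochondria. Its log2 values were 0.28, 1.85, 0.89 and 0.71 on JFLX replicates 1 to 4, against -0.34, 0.14, -0.06 and 0.06 on control replicates 1 to 4. JFLX replicate 2 was the highest by far, and JFLX replicate 1 lay 0.15 above the highest control. The mean in JFLX was 0.94 ± 0.66 and the control mean -0.05 ± 0.21 (SD, n = 4 each), a difference of 0.99 ± 0.31 (SE) or 1.98-fold. Without JFLX replicate 2 the difference was 0.68. Unscaled intensities were 46.3, 60.8, 98.6 and 174 on the JFLX arrays, against 39.3, 41.5, 51.5 and 61.7 on the control arrays, so 2 JFLX arrays lay within the control range.

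Cert1 encodes the ceramide transfer protein, which carries ceramide from the endoplasmic reticulum to the Golgi apparatus, where sphingomyelin is made. For Cert1 the log2 values were 0.36, 0.75, 0.28 and 0.47 on JFLX replicates 1 to 4, against 0.15, 0.03, -0.03 and -0.38 on control replicates 1 to 4. The groups were apart by 0.13, less than the spread within either. The JFLX mean was 0.47 ± 0.21 and the control mean -0.06 ± 0.23 (SD, n = 4 each), a difference of 0.52 ± 0.16 (SE) or 1.44-fold. Unscaled intensities were 50.4, 83.0, 83.5 and 105 on the JFLX arrays, against 48.9, 54.9, 71.5 and 74.4 on the control arrays. The lowest JFLX array was within the control range and the other 3 were above it.

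Abca4 encodes a transporter of retinoid-bound phospholipid that is best known from the photoreceptors of the retina. For Abca4 the log2 values were 0.41, 1.67, 1.29 and 2.15 on JFLX replicates 1 to 4, against 0.62, -1.15, 0.32 and -0.32 on control replicates 1 to 4. Both groups were wide, and JFLX replicate 1 lay below control replicate 1. The mean in JFLX was 1.38 ± 0.74 and the control mean -0.13 ± 0.78 (SD, n = 4 each). The difference of 1.51 ± 0.48 (SE), or 2.86-fold, was the second in size in the list of higher probes and had the widest error of the 7 genes. The detected flag was set on 3 JFLX arrays and 3 control arrays. Unscaled intensities were 12.6, 23.7, 24.7 and 29.2 on the JFLX arrays, against 4.80, 7.46, 10.3 and 14.5 on the control arrays. With control replicate 1 alone as control the difference was 0.76.

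**Figure D2:**
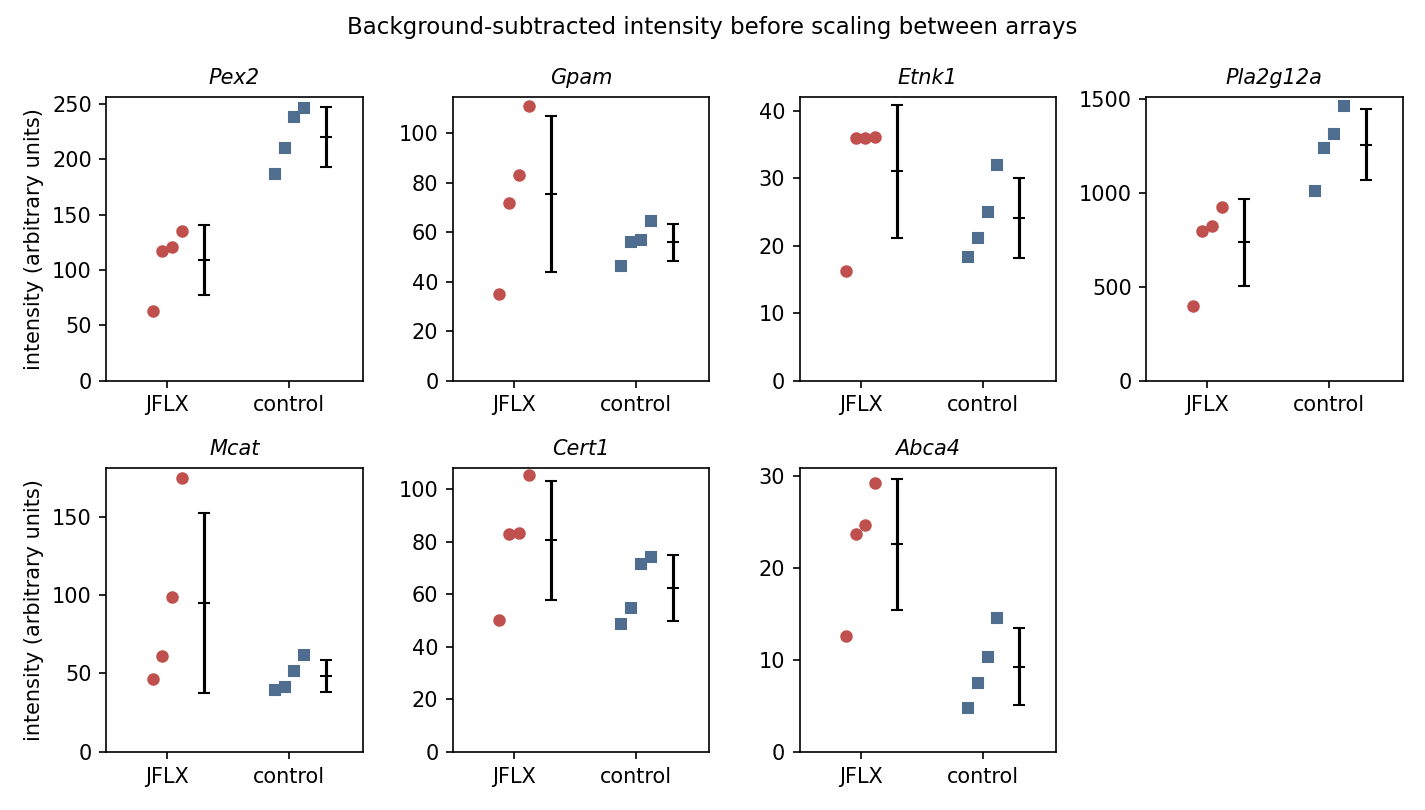
Background-subtracted intensity of each probe before scaling between arrays, in arbitrary units from 0, with JFLX as red circles left of control as blue squares, each group sorted by size, and mean with SD of 4 arrays beside the points. Panels have their own axes because intensities of different probes are not comparable. Pex2 and Pla2g12a separate without scaling, and in the other 5 genes at least 1 JFLX array lies at or below the brightest control.

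Over all listed probes the median intensity was 32.5, 57.3, 58.0 and 63.5 on the JFLX arrays, sorted by size, against 36.7, 39.0, 39.4 and 51.0 on the control arrays. By this median 1 JFLX array was dimmer than every control array, and the others were brighter than every control array. Intensities of unlisted probes were not analysed, so this does not describe the arrays as a whole. In 6 of the 7 genes the lowest JFLX intensity was on that dimmest array. The array was picked on the listed probes, which include these 7, and the share over all listed probes was not analysed here. The count is therefore not a trait of these genes. The intensity columns name arrays by codes that the sample titles do not share, so the array is not matched to a replicate number here. Without any scaling, the log2 differences were -1.06 for Pex2, -0.83 for Pla2g12a, 0.32 for Gpam, 0.32 for Etnk1, 0.34 for Cert1, 0.81 for Mcat and 1.33 for Abca4. Each was lower than with the deposited values, and all kept their sign. Against control replicate 1 alone, the differences from the deposited values were -0.81 for Pex2, -0.63 for Pla2g12a, 0.50 for Gpam, 0.31 for Cert1 and 1.28 for Mcat, beside the values given above for Etnk1 and Abca4. In that comparison limma called 0 of all 15207 probes, with 1847 at an unadjusted p under 0.05, and after quantile normalization it also called 0, with 1298 unadjusted, so the calls of Pex2 and Pla2g12a were lost there together with all others of the array. After quantile normalization the differences were -0.92 for Pex2, -0.57 for Pla2g12a, 0.33 for Gpam, 0.21 for Etnk1, 0.38 for Cert1, 0.65 for Mcat and 0.89 for Abca4.

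**Figure D3:**
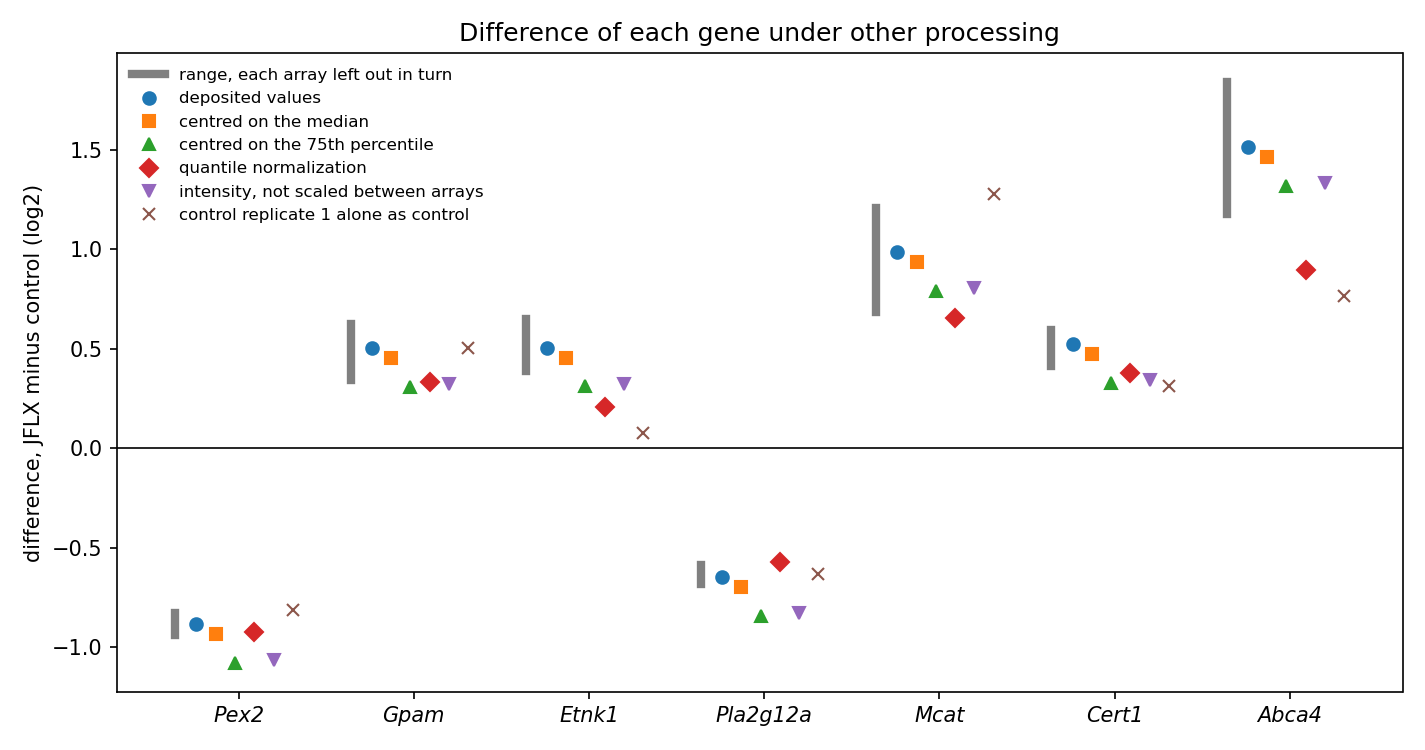
Difference of each gene (JFLX minus control, log2) from the deposited values, from arrays centred on the median or the 75th percentile, after quantile normalization, from unscaled intensity and against control replicate 1 alone. The grey bars span the values when each array is left out in turn. Pex2 and Pla2g12a stay below -0.5 in all of these, and Etnk1 comes closest to 0, at 0.08 against control replicate 1 alone.

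Set against all probes of the array, whose differences ran from -0.30 at the 10th to 0.85 at the 90th percentile with a median of 0.04, Pex2 and Pla2g12a lay below the 10th percentile. Mcat and Abca4 lay above the 90th. Gpam, Etnk1 and Cert1 lay between, so differences of their size were common among all probes in the higher direction. The listing cut of -0.4 on the JFLX mean already lies beyond the 10th percentile, whereas the cut of 0.4 lies inside the 90th. That the lower genes fell outside and some higher genes inside therefore follows largely from the listing and is not a trait of these genes. The median of the 5 higher genes was 0.52, beside 0.57 for the whole list of higher probes. The median of the lower list was -0.59.

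The other genes of these pathways were taken from 10 lists with 198 genes in all. How many of the 198 have a probe on the array is not known here, because only listed probes carry a name. The fractions below are therefore not shares of measured genes, and they include the 7 members, which were chosen for being listed. Besides the 7, another 6 genes of the lists were listed by the authors, 5 higher and 1 lower, and limma called the lower one only. In glycerolipid synthesis 3 of 23 genes were listed, all higher, and 0 were called. Beside Gpam these were Cds2, which makes CDP-diacylglycerol, at 0.57 ± 0.22 (difference, log2, SE), and the phosphatidate phosphatase Lpin2 at 0.48 ± 0.18. In ceramide and sphingolipid metabolism 3 of 35 were listed, all higher, and 0 were called. Ugcg, which makes glucosylceramide, stood at 0.41 ± 0.15, and Ormdl3, a regulator of ceramide synthesis, at 0.48 ± 0.18. The groups overlapped in all 4 of these genes, at the probe of each.

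In fatty acid synthesis and elongation 2 of 26 genes were listed, Mcat and the desaturase Fads2, which stood at 0.71 ± 0.24 with overlapping groups, and 0 were called. In mitochondrial fatty acid oxidation 1 of 19 was listed, Hadha, the alpha subunit of the trifunctional protein, and it was called lower. Hadha had -0.55, -0.55, -0.47 and -0.77 on JFLX replicates 1 to 4, against -0.17, 0.19, -0.14 and 0.14 on control replicates 1 to 4, a difference of -0.59 ± 0.13. As in Pla2g12a, JFLX replicate 4 was the lowest and JFLX replicate 3 the highest of the JFLX arrays. Peroxisome biogenesis had 1 listed gene of 17, Pex2, the phospholipase A2 family 1 of 17, Pla2g12a, ethanolamine and choline phospholipid synthesis 1 of 15, Etnk1, and the ABC lipid transporters 1 of 12, Abca4. Peroxisomal lipid metabolism, with 21 genes, and the retinoid cycle, with 13, had 0 listed genes, and the values of their genes were not analysed here. Members of these lists carry a name only because the authors listed them on the same arrays, so the counts say nothing about the genes of a pathway that were not listed. By the words lipid, fatty acid, peroxisome, sterol, ceramide or phosphatidyl in the ontology terms, 24 of the 316 listed probes with any term held one of them, 13 higher and 11 lower.

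**Figure D4:**
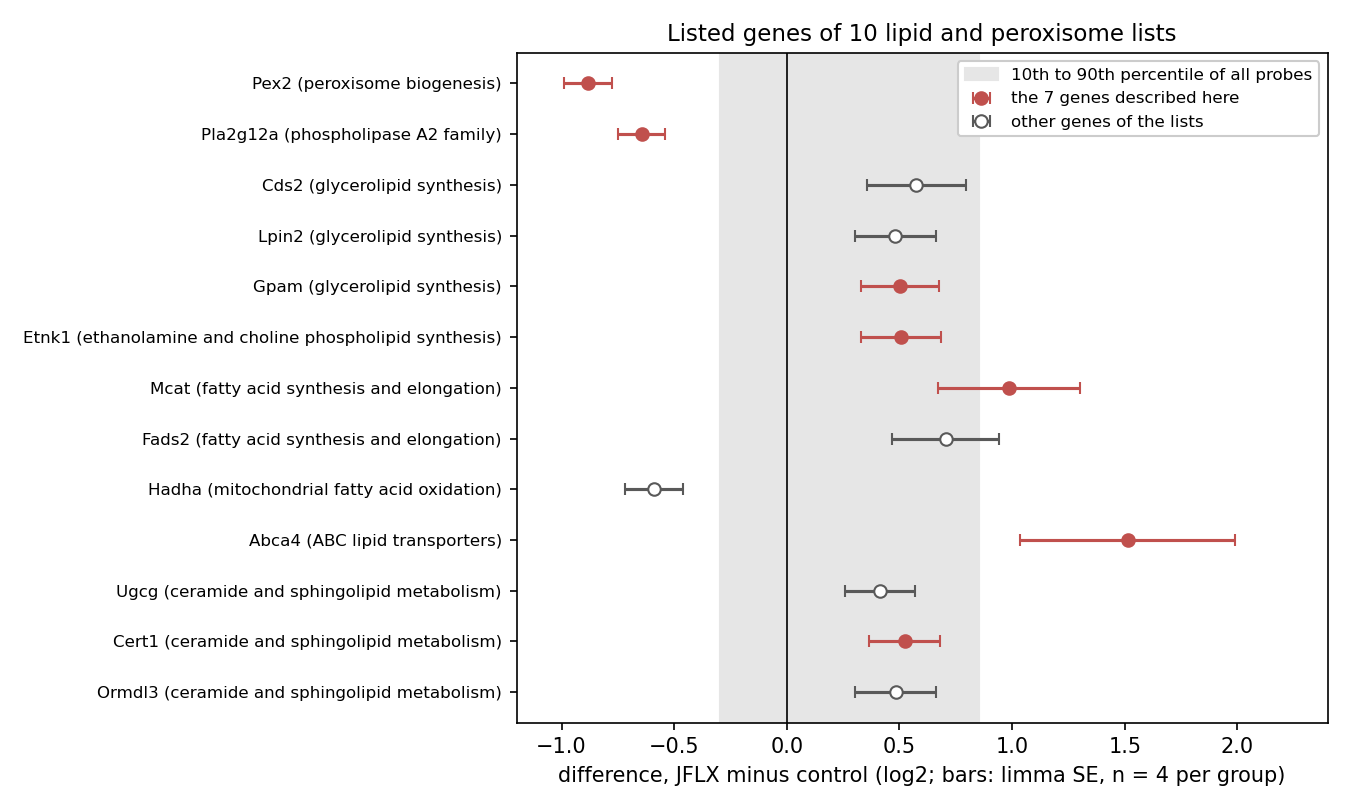
Differences (JFLX minus control, log2) with limma SE, n = 4 per group, for the 13 listed genes of the pathway lists, with the 7 genes described here filled in red and the other genes open. The grey band spans the 10th to the 90th percentile of all 15207 probes. The 5 open points on the higher side lie within the band, and Hadha lies below it with Pex2 and Pla2g12a. The listing cut of -0.4 on the JFLX mean lies outside the band and that of 0.4 inside it, so this follows largely from the listing.

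The 7 genes did not vary as a block within the groups. Each value was taken as its deviation from the mean of its group, which removes the difference that chose the genes, and Pearson's r was computed over the 8 arrays, as a description without a test, since the arrays share 1 slide. Over the 21 pairs the median r was 0.03, beside 0.05 over all pairs of listed probes, and 11 pairs were above 0. Pex2 and Gpam, which differ in direction between the groups, had the highest r of 0.704, followed by Etnk1 and Cert1 with 0.672. Gpam and Abca4 were the most opposed, at -0.737. Among the listed probes of other genes the most alike were Mrpl15, a mitochondrial ribosomal protein, for Pla2g12a (r = 0.986), Tfr2, a transferrin receptor, for Mcat (r = 0.968) and Cpeb2, a protein that binds mRNA, for Abca4 (r = 0.942). For Pex2 it was the endothelin Edn2 (r = 0.934), for Gpam the glycosyltransferase Gcnt3 (r = 0.933), for Etnk1 the sorting nexin Snx10 (r = 0.925) and for Cert1 the transcription factor Elk1 (r = 0.898). Each was picked as the highest among the listed probes of other named genes and is high by that choice.

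A promoter sequence was given for 5 of the 7 genes in the RefSeq table of the build GRCr8, in which Pex2 and Mcat were not matched. The windows of 3 genes are shown because they hold a matched motif other than CCAAT. They are the 250 bases before the annotated start of Cert1 (chr2:29616952-29617201, plus strand), Etnk1 (chr4:177856893-177857142, plus strand) and Pla2g12a (chr2:221110472-221110721, plus strand), and capitals mark the GC box, the short cAMP response element, the CCAAT box or the E-box on either strand, as spelled out after the sequences:
Cert1: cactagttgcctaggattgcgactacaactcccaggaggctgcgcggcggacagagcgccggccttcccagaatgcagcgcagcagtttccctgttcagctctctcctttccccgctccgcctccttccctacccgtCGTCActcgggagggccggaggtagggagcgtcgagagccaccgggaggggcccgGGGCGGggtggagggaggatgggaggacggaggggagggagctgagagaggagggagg
Etnk1: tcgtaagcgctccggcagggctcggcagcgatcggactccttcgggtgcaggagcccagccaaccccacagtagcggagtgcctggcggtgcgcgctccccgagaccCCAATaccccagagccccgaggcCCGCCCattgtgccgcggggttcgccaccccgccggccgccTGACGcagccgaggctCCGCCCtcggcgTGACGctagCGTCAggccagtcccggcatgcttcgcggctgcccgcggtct
Pla2g12a: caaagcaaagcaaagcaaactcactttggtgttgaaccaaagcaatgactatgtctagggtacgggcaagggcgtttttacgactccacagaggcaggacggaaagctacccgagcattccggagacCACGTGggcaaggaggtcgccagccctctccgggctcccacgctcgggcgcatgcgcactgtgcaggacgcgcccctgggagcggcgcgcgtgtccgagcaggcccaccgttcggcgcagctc
The GC box GGGCGG and TGACG, the short form of the cAMP response element, were found in Cert1 and Etnk1, beside 30.5% and 18.2% of the 33469 promoter windows of the same length. CACGTG, an E-box, was found in Pla2g12a (5.59% of all windows) and CCAAT in Gpam and Etnk1 (34.0%). TATAAA (12.9% of all windows), the full cAMP response element TGACGTCA (1.59%), which contains TGACG, and TCACNCCAC, a form of the sterol response element (0.974%), were found in 0 of the 5. Direct repeats of the half-site AGGTCA of lipid-sensing nuclear receptors, with spacers of 1 and 4 bases, were found in 0 of the 5 and in 0.0508% and 0.00299% of all windows. GC content was 73.6% in Etnk1, 68.0% in Cert1, 62.8% in Pla2g12a, 51.2% in Gpam and 50.8% in Abca4, beside a median of 51.2% over all windows. Cert1 and Etnk1, both higher in JFLX, thus share GC-rich windows, as does Pla2g12a, which was lower. A match describes the letters of the window only.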

How the data were processed

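Total RNA (500 ng) of 4 JFLX and 4 control samples was labelled with Cy3 and hybridised to Agilent arrays, according to the labels' protocols. The authors deposited log2 values, centred on the median of the control arrays of each probe, with a normalization between arrays that the sources used here do not name. The authors' deposited lists give background-subtracted intensity per array, log2 group means, a p-value and the number of arrays flagged as detected, per the file headers. Intensity columns were assigned to groups only, and 16 further columns per list were not used. Levels of unlisted probes were not analysed here, so a filter on dim probes could not be run.

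Symbols were taken from a RefSeq table (GRCr8) by gene ID, whose gene coordinates were not used. Differences are JFLX minus control from limma 3.58.1, run in R 4.3.3 with lmFit and eBayes (15207 probes, Benjamini-Hochberg, threshold 0.05, two-sided), tested on simulated data. Python 3.11.15 with pandas 2.3.3 and matplotlib 3.10.9 served for tables and plots.

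The members and lists were chosen with earlier results of these data known. Named genes are the members, every listed gene of the pathway lists (1 further list is not reported here), and for each member the listed gene with the most similar deviations from the group means. Alternatives were quantile normalization, centring, trend and robust variance, array weights, a replicate block, an equal-variance test per probe and leaving out each array. Unscaled intensity and control replicate 1 as the only control were added after seeing the data.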

Additional observations from a re-analysis of the deposited data

Results flagged for a closer look

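In 1 of 14 groups of 4 arrays tested, where chance gives about 1 in 20, a single array stood apart. For Pex2, control replicate 4 was the highest control at 0.23, and its gap to the next control was 0.893 of the range of the group, above the critical value of Dixon's test. It lies away from the JFLX values, and without it the difference of Pex2 was -0.82.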

How the results depend on the processing

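Unscaled intensity and control replicate 1 as the only control were chosen after seeing the data. Over 91 single values of the 7 genes none changed sign, and 85 moved by less than the SD between replicates. The other 6 were Pex2 at -1.08 and Pla2g12a at -0.84 with arrays centred on the 75th percentile, -1.06 and -0.83 from unscaled intensity, and Etnk1 at 0.21 after quantile normalization and 0.08 against control replicate 1 alone. Leaving out 1 of 4 arrays cannot move a difference by that SD, so those values had to be among the 85. The count of 85 is therefore no measure of stability. Abca4, at 0.76 against control replicate 1 alone and 1.51 with the deposited values, was also among the 85. With each array left out in turn, differences ran from -0.94 to -0.82 for Pex2, -0.68 to -0.58 for Pla2g12a, 0.34 to 0.62 for Gpam, 0.39 to 0.65 for Etnk1, 0.68 to 1.20 for Mcat, 0.42 to 0.59 for Cert1 and 1.18 to 1.84 for Abca4, and limma called 2 of the 7 genes each time, with 780 to 907 probes called over the array, a count that rests on the values that chose the genes. Quantile normalization left 0 of 15207 probes and 0 of the 7 genes called in limma (1298 and 3 at an unadjusted p under 0.05), against 950 and 2 with the deposited values. Its input was already centred on the controls. Control replicate 1 as the only control also left 0 probes and 0 genes called (1847 and 2 unadjusted), with fewer samples and the lone control assumed to vary like JFLX. Trend and robust variance left 0 of the 7 genes called (7 unadjusted) and 759 probes, all higher. With the replicate number as a block, 764 probes and 1 gene, Pex2, were called. Same-numbered arrays did not deviate together in every pair (r = -0.04, 0.40, 0.12 and -0.28 for numbers 1 to 4). The r of 0.40 was the highest between any JFLX and control array. These values do not settle whether same-numbered samples were paired. The filter on dim probes was not run. The number of arrays limits the precision.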
